A study of Mus musculus with 4 samples.

Results

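Toll-like receptors and the proteins that work with them were followed in RNA sequencing of mouse cortex, from APPswe/PS1ΔE9 transgenic animals (APP) and wild type controls (WT). The genes were Tlr2, Tlr4, Tlr3, Tlr7, Tlr13, the co-receptor Cd14, the receptor-like gene Cd180 with its partner Ly86, the trafficking gene Unc93b1 and the adaptor Myd88, 10 of the 18386 genes and unassigned transcripts counted. They were chosen by name, and their 13 transcripts were found by Ensembl identifier in GENCODE M21. The deposited gene symbol, with letter case ignored, finds 9 of them, because the 3 transcripts of Unc93b1 carry no symbol in the deposited table. All 10 genes passed the minimum of 10 counts over the libraries.

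The APP group was 2 male mice of 12 months that carry both the APPswe and the PS1ΔE9 transgene, a model of AD on a C57BL/6 background, and the WT group was 2 male mice of the same age without the transgenes, which the labels also give as C57BL/6 and the study's methods as C57BL/6J. The transgenes in this line are driven by the prion protein promoter, so the human proteins are made widely in the brain, and all APP mice come from a single line. Each library was made from the cortex of 1 mouse, and the labels name no treatment of either group beyond anaesthesia before dissection. The libraries are named APP.3, APP.4, WT.1 and WT.2 after the deposited columns, and pairs of values follow that order.

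Toll-like receptors recognise conserved molecules of microbes and some products of damaged tissue. TLR2 and TLR4 act at the cell surface, where CD14 hands ligands to them, while TLR3, TLR7 and TLR13 detect RNA inside endosomes, to which UNC93B1 carries them. Most of these receptors signal through MYD88 to NF-κB. In the brain they are found mainly on microglia, and CD14, TLR2 and TLR4 are known as receptors for fibrillar Aβ.

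The libraries held between 28525117 and 43881196 counts, and a gene's level is given as CPM, the usual scaling of a count to its library's total, with totals adjusted by the TMM method. Replicates differed beyond counting error, with a chi-square per degree of freedom of 28.7 in APP and 5.27 in WT, so no library was a copy of another. App, on which reads of the transgene can be counted, had 2679 and 2388 CPM in the transgenic libraries against 857 and 905 in the wild type ones, which fits the labels. The 6 neuronal markers summed to between 3579 and 4455 CPM. They are markers of neurons and are not specific to the cortex. The summed level of 8 striatal markers was 189 and 407 CPM in the APP libraries and 280 and 298 CPM in the WT libraries, and that of the 6 hypothalamic markers counted of 9 was 6.03 and 9.30 CPM in APP against 1.46 and 0.987 in WT. The part of these differences in the results below was not tested.

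Between APP and WT, 9 of the 10 genes were higher in both APP libraries than in either WT library, and Myd88 was the exception. The cut-offs were those of the study, an adjusted p under 0.05 with a change of 1.5-fold or more, in the quasi-likelihood test of edgeR, adjusted over all 18386 features by the Benjamini-Hochberg method. Cd180, Tlr2, Ly86 and Tlr13 rose, and 6 genes did not pass. Over all features, 0.843% were called as higher in APP, 0.0381% as lower, and 21.3% had both APP libraries above both WT libraries. At an unadjusted p under 0.05, 9 of the 10 were higher, against 7.36% of all features. The log2 fold changes of the 10 genes had a median of 1.10, and ran from 0.00 for Myd88 to 2.67 for Cd180, against a median of 0.00 over all features. The study's own list of differentially expressed mRNAs, selected on these same libraries, contains 8 of the 10, all but Tlr4 and Myd88, so these counts are not independent evidence of a direction.

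**Figure D1:**
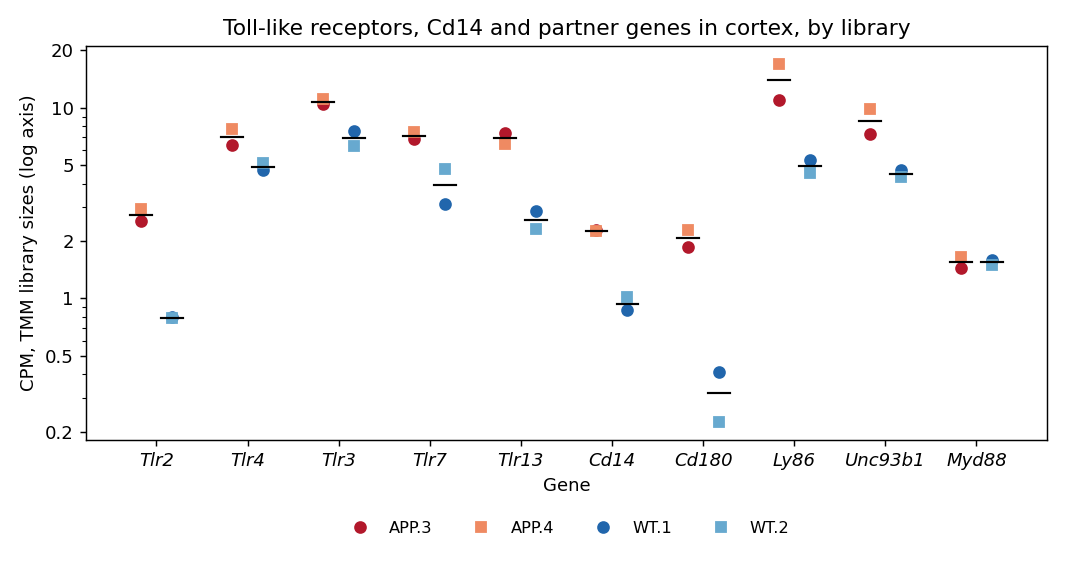
CPM of each gene (log axis) in the 2 APP libraries (red and orange) and the 2 WT libraries (dark and light blue), with black bars for the group means. Both APP points lie above both WT points for 9 genes, while the points of Myd88 lie together between 1.45 and 1.65 CPM.

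Microglial markers moved in the same direction. Of 15 markers, 8 rose, 0 fell and 13 had both APP libraries above both WT libraries, and their summed level was 502 and 588 CPM in the APP libraries against 309 and 312 CPM in the WT libraries, a ratio of 1.76 between the group means. Over all features, 0.843% were called as higher and 21.3% had both APP libraries above both WT libraries. None of the 15 markers was at the limit of detection in any group. In bulk cortex, more microglia and more RNA of a gene per microglial cell cannot be told apart. For other cells that can carry these receptors the values were as follows. The 7 markers of border macrophages summed to between 13.1 and 13.8 CPM in every library, with 0 called. For monocytes and neutrophils 4 of 7 markers were counted, with 0 called and sums of 1.41 and 1.78 CPM in APP against 1.34 and 1.10 in WT. For lymphocytes 4 of 7 were counted, with 0 called and a sum of 3.998 to 4.71 CPM. Plac8, Camp, Ngp, Cd3e and Cd2 were among those not analysed here. The summed astrocyte markers had a ratio of 1.23 between the groups with 2 of 6 called. These were Gfap, which rose 7.06-fold, and Aqp4, which rose 1.65-fold, and the other astrocyte markers did not pass. Slc1a2, at a ratio of 1.12, made up most of that sum, so the sum says little of Gfap. The oligodendrocyte markers had a ratio of 1.37 with 1 of 6 called, Mag. Whether these cells had a part in the values below was not tested.

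Of the surface receptors TLR2 and TLR4, the gene of the former passed the test. Tlr2, which recognises bacterial lipoproteins (chromosome 3 of GRCm38, 83836272 to 83841767, minus strand), had 74 and 91 counts (2.55 and 2.94 CPM) in the APP libraries, and 35 and 28 counts (0.797 and 0.790 CPM) in the WT libraries. The WT libraries were nearly equal and lay well below both APP libraries. The rise was 3.45-fold (95% interval from 2.33 to 5.11, adjusted p = 0.0148).

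Tlr4, the receptor for bacterial lipopolysaccharide (chromosome 4, 66827584 to 66930284), stood at 6.38 and 7.75 CPM in the APP libraries and at 4.71 and 5.11 CPM in the WT libraries. The groups did not overlap, but the gap between APP.3 and WT.2 was smaller than that between the APP libraries. Its ratio of 1.44 (95% interval from 1.12 to 1.85) was below the fold change cut-off and did not pass the test (adjusted p = 0.207).

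Cd14 (chromosome 18, minus strand), the co-receptor of both, gave 66 and 70 counts in the APP libraries and 38 and 36 in the WT libraries. This was 2.28 and 2.26 CPM in APP and 0.865 and 1.02 in WT, with close replicates on each side. Its ratio of 2.42 (95% interval from 1.62 to 3.61) was above the fold change cut-off, and its adjusted p of 0.0600 did not pass. Ly96, which encodes the subunit of the TLR4 complex that binds lipopolysaccharide, had 17 and 27 counts in APP beside 30 and 28 in WT, at a log2 ratio of -0.01 (adjusted p = 0.998).

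Cd180 and Ly86 encode a receptor-like protein without a signalling domain of its own, RP105, and the secreted protein MD-1 that binds it, a pair related to TLR4 and its partner. Cd180 (chromosome 13, 102693558 to 102739629) had the largest ratio of the 10 genes and the lowest level in WT. Its APP libraries held 54 and 71 counts (1.86 and 2.29 CPM) and its WT libraries 18 and 8 counts (0.410 and 0.226 CPM). The WT libraries were apart from each other at these low counts, and both lay far below APP. The rise was 6.35-fold (95% interval from 3.58 to 11.3, adjusted p = 0.0142). Of its 2 transcripts, the 1 with 3 exons held 50 and 63 counts in APP while each WT library had 8. The other, of 2 exons, had 4 and 8 counts in the APP libraries beside 10 and 0 in the WT libraries, and supplied more than the main transcript in WT.1. Fitted over all 37539 transcripts, of which 0.749% were called as higher in APP, the main transcript rose by 3.20 on the log2 scale (SE 0.36, adjusted p = 0.00018). Cd180 lies on the opposite strand to Mast4, with no exonic base shared between their counted transcripts.

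Ly86 (chromosome 13, 37345208 to 37419036) was the most abundant of the 10 genes per length of transcript. Its APP libraries held 319 and 527 counts (11 and 17.01 CPM) and its WT libraries 233 and 162 counts (5.30 and 4.57 CPM). Its APP libraries differed from each other more than those of any other of the 10 genes, and the lower of them was still above both WT libraries. The rise was 2.83-fold (95% interval from 2.04 to 3.93, adjusted p = 0.0142).

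Of the endosomal receptors, Tlr13 passed the test. Tlr13, which detects bacterial ribosomal RNA (chromosome X, 106143204 to 106160493), gave 214 and 201 counts in the APP libraries beside 126 and 82 in the WT libraries. In CPM the values were 7.38 and 6.49 in APP and 2.87 and 2.31 in WT, a clear separation. The rise was 2.66-fold (95% interval from 2.02 to 3.51, adjusted p = 0.00936).

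Tlr7, which detects single-stranded RNA (chromosome X, 167304929 to 167330558, minus strand), was at 6.83 and 7.43 CPM in the APP libraries and at 3.12 and 4.80 CPM in the WT libraries. The spread lay between the WT libraries, and the ratio of 1.81 (95% interval from 1.305 to 2.52) did not pass (adjusted p = 0.119). Tlr7 passed when WT.2, APP.3 or APP.4 was left out, with log2 ratios of 1.196, 0.92 and 0.80 in place of 0.86, and did not pass without WT.1, at 0.57 (adjusted p = 0.493).

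Tlr3, the receptor for double-stranded RNA (chromosome 8, 45395665 to 45411080, minus strand), had 10.5 and 11.1 CPM in APP and 7.56 and 6.29 in WT. The groups were apart by less than those of Tlr13, at a ratio of 1.56 (95% interval from 1.25 to 1.93, adjusted p = 0.0796).

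Unc93b1 (chromosome 19, 3935186 to 3949340), the carrier of the endosomal receptors, gave 211 and 306 counts in the APP libraries and 207 and 153 in the WT libraries. Its levels of 7.27 and 9.88 CPM in APP lay above 4.71 and 4.32 CPM in WT, a ratio of 1.90 (95% interval from 1.44 to 2.51), just short of the cut-off at an adjusted p of 0.0527. By transcript, the protein-coding one of 11 exons held 66 and 75 counts in APP beside 44 and 26 in WT and rose by 1.42 on the log2 scale (SE 0.26, adjusted p = 0.0110 over all transcripts). The 2 transcripts with a retained intron were counted 103 and 42 times in library APP.3, 150 and 81 times in APP.4, 111 and 52 times in WT.1, and 72 and 55 times in WT.2. Their log2 fold changes were 0.88 and 0.59, and neither passed (adjusted p = 0.0579 and 0.572). Transcripts with a retained intron thus took most of the counts of this gene in all 4 libraries. How reads shared between transcripts of a gene were assigned is not given in the sources used here.

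Myd88 (chromosome 9, 119335934 to 119341411, minus strand) gave 42 and 51 counts (1.45 and 1.65 CPM) in the APP libraries beside 70 and 53 counts (1.59 and 1.495 CPM) in the WT libraries. The groups overlapped, with a ratio of 1.002 and a 95% interval from 0.676 to 1.48 (adjusted p = 0.999). A rise as large as the cut-off of 1.5 lies just outside that interval. Its locus overlaps Acaa1a on the opposite strand, with no exonic base shared.

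**Figure D2:**
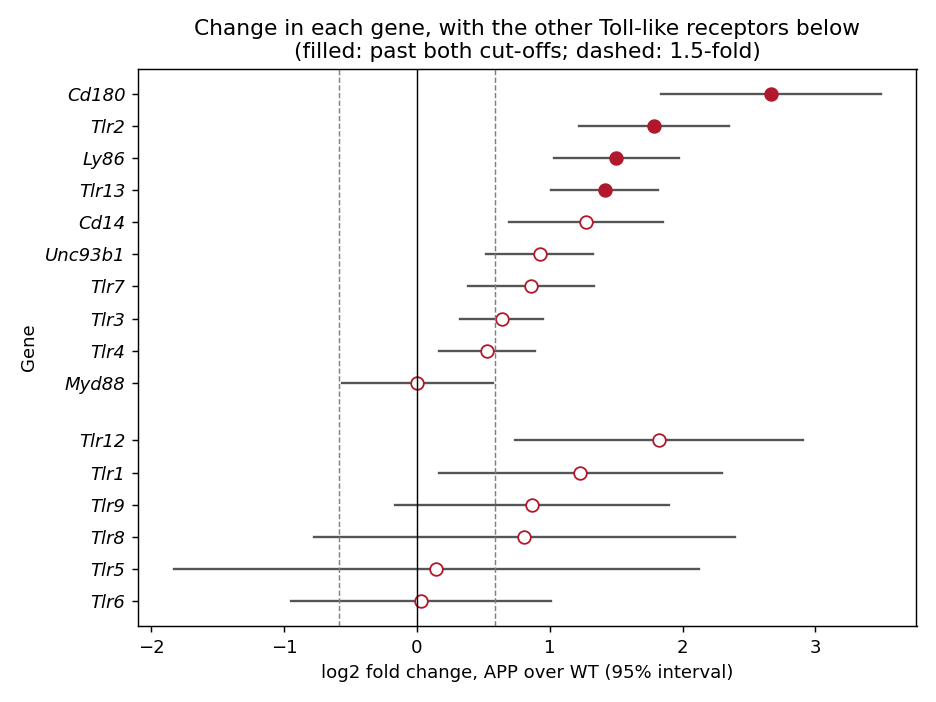
Log2 fold change of APP over WT (points) with its 95% interval (lines) for the 10 genes, above, and the 6 other Toll-like receptors counted, below, where filled points passed both cut-offs and dashed lines mark a fold change of 1.5. Cd180, Tlr2, Ly86 and Tlr13 are filled, and the intervals of the other receptors are wide at their low counts.

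The call depended on the test for most of the genes between these extremes. edgeR's exact and likelihood ratio tests each called 8 of the 10 genes, all but Tlr4 and Myd88, against 1.77% and 1.91% of all features called as higher in APP. With a library left out, the lone sample of its group is assumed to vary like the other group. Without APP.3 the quasi-likelihood test called 9, all but Myd88, with Tlr4 at a log2 ratio of 0.66. Without APP.4 it called 8, all but Tlr4 and Myd88, and 2.74% and 1.97% of features were called in these fits, while it called 4 without WT.1 and 5, adding Tlr7, without WT.2, where 0.767% and 0.68% of features were called. DESeq2 and library totals each called 5, adding Unc93b1, against 1.04% and 0.941% of features, and deposited symbols gave 5, adding Cd14, against 0.908%. At least 10 counts in every library left 3 (0.867% of features), and a fold change of 2 left 4 (0.484%). Transcripts in place of gene sums gave 8, against 0.749% of all transcripts, where a gene was counted if any of its transcripts was called. Tlr2, Ly86 and Tlr13 were called under every setting run, and Cd180 under all but a minimum of 10 counts in every library, which removes it.

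To show the sequence before the genes that rose, the bases upstream of their RefSeq start (GRCm38.p6) that lie in no annotated exon were taken where possible, and for Tlr2 a short stretch 172 bases before the start. Capitals mark matches, on either strand, to a κB site, bound by NF-κB (GGG, any 2 bases, TT, any base, CC), to GAGGAA (a box bound by PU.1, a myeloid factor), to an interferon response element (GAAA, any 2 bases, GAAA), to TGANTCA (an AP-1 site) or to GGAAGT (an ETS site, which can overlap the PU.1 box and was added after these sequences were seen):
Tlr2, chr3:83841761-83841790, minus strand: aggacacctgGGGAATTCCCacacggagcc
Tlr13, chrX:106143025-106143203, plus strand: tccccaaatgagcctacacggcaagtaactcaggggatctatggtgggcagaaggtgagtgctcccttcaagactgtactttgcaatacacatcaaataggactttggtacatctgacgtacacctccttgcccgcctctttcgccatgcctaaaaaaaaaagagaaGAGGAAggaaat
Cd180, chr13:102693297-102693546, plus strand: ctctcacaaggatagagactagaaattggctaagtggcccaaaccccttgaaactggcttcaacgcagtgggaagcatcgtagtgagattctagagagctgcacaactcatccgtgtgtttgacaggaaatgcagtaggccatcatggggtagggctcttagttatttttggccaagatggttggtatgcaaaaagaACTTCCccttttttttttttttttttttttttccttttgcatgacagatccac
Ly86, chr13:37345095-37345207, plus strand: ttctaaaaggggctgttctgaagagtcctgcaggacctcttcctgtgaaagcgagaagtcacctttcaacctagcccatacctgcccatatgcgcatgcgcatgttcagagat

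The palindromic κB match of Tlr2 begins 172 bases before its start, the PU.1 box of Tlr13 83 bases before and the ETS match of Cd180 53 bases before, while the 250 bases before Ly86 hold none of the 5 motifs. Distances count from the RefSeq start. For Tlr2, Tlr13, Ly86, Tlr3 and Myd88 this start lies inside the GENCODE locus. The κB match of Tlr2 and the PU.1 box of Tlr13 lie before both starts, and the last bases of the Tlr2 stretch reach into the GENCODE locus. Among the 32851 promoters of the RefSeq table, 4.11% hold the κB letters in the same window, 23.3% the PU.1 box, 19.7% the ETS site, 2.98% the interferon response element and 6.75% the AP-1 site. Tlr2 also has an ETS match 30 bases before its RefSeq start, which lies in an exon annotated in GENCODE. Of the genes that did not pass, Tlr3 has a κB match 211 bases before its RefSeq start and Myd88 an interferon response element 40 bases before. Both matches lie inside the GENCODE locus of their gene, that of Tlr3 in an annotated exon and that of Myd88 in none. The table held 6 of the 10 genes, and Tlr4, Tlr7, Cd14 and Unc93b1 were not among them. A match is a run of letters and was not tested for binding.

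Levels of different genes were compared as CPM per kilobase of transcript. In WT cortex the order from high to low was Ly86, Unc93b1, Tlr3, Tlr4, Tlr7, Myd88, Tlr13, Cd14, Tlr2 and Cd180. The value of Unc93b1 adds up its 3 transcripts, each by its own length. The 2 with a retained intron, of 1668 and 747 bases, are shorter than the protein-coding one of 2266 bases and held most of the counts. Most of the Unc93b1 value in WT and APP therefore came from them, and the protein-coding transcript was not ranked by itself. Ly86 stood at 4.35 ± 0.457 CPM per kilobase and Cd180 at 0.141 ± 0.0784 (SD, n = 2). The values of Tlr4 and Tlr7 overlapped between libraries, as did those of Tlr13 and Cd14, and all other neighbours were separate. In APP the first 3 genes kept their places, with Ly86 at 12.4 ± 3.75, Unc93b1 at 6.27 ± 1.70 and Tlr3 at 2.45 ± 0.0901 CPM per kilobase (SD, n = 2). Tlr7, Tlr4 and Tlr13 followed with overlapping values between 1.56 and 1.97. Myd88, sixth in WT, came last in APP at 0.789 ± 0.0718 against 0.788 ± 0.0353 in WT, and its values overlapped those of Cd180, which overlapped those of Tlr2.

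**Figure D3:**
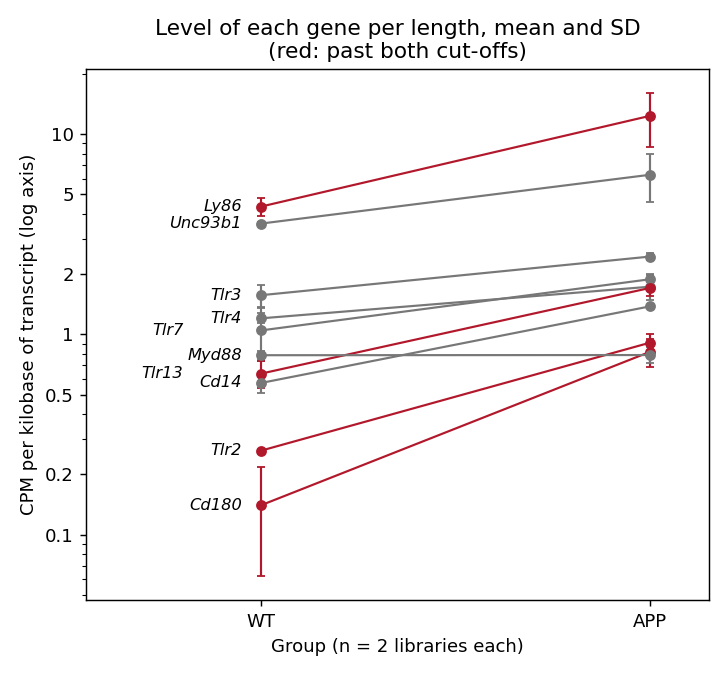
CPM per kilobase of transcript (log axis) of each gene in WT and APP, as means of 2 libraries with SDs, with genes past both cut-offs in red. Most lines rise from WT to APP, and that of Myd88 is flat. The means of Tlr13, Cd14, Tlr2 and Cd180 lie below that of Myd88 in WT and above it in APP, where the values of Cd180 and Myd88 overlap.

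The genes were next set against the microglial markers within each library, as the log2 ratio of a gene's CPM to the summed CPM of the 15 markers. A two-sided exact permutation test of 2 against 2 libraries cannot reach a p below 0.3333, so these ratios are descriptions with no call. For 5 genes both APP ratios lay above both WT ratios, for 2 both lay below, and for 3 they overlapped. Cd180 was higher relative to the markers in APP by 1.96 on the log2 scale, Tlr2 by 0.98, Ly86 by 0.67, Tlr13 by 0.62 and Cd14 by 0.47 (exact permutation p = 0.3333 for each). The libraries of Tlr2 were tight, with log2 ratios of -7.62 and -7.64 in APP and -8.60 and -8.63 in WT.

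Unc93b1 and Tlr7 differed by 0.10 and 0.07, less than the spread between replicates, and both differences turned negative, to -0.09 and -0.12, with the median of the markers in place of their sum. For Unc93b1 this is the sum of its transcripts, mostly those with a retained intron. Its protein-coding transcript, which rose by 1.42 on the log2 scale, was not set against the markers by itself. Tlr3 differed by -0.16 with overlapping groups. Tlr4 was lower relative to the markers by -0.29 and Myd88 by -0.81, with log2 ratios for Myd88 of -8.44 and -8.48 in APP and -7.60 and -7.70 in WT (exact permutation p = 0.3333 for both genes). Myd88 itself had a ratio of 1.002 between the groups, so its value here restates the rise of the summed markers.

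**Figure D4:**
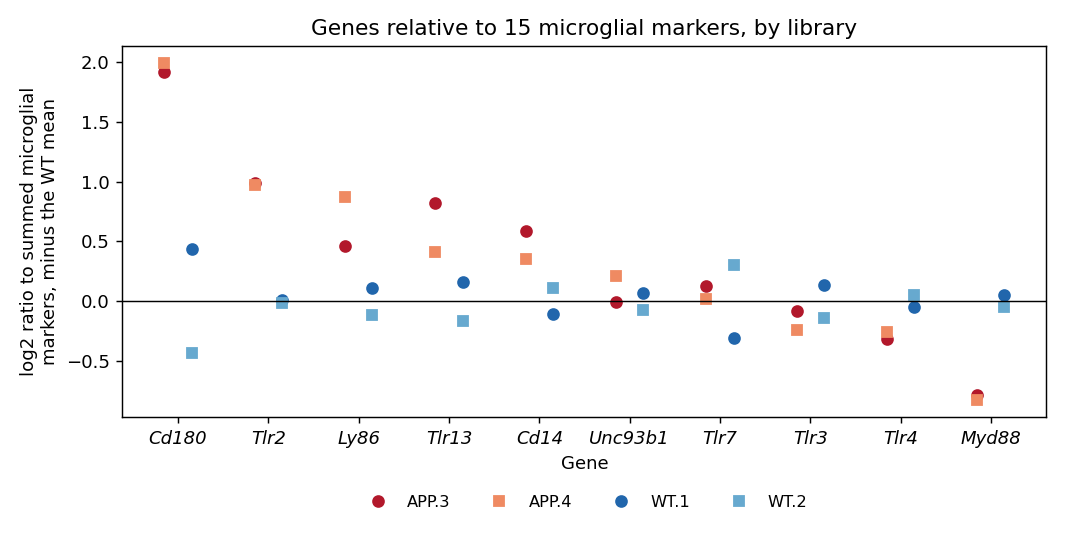
Log2 ratio of each gene to the summed CPM of 15 microglial markers in each library, with the WT mean of the gene subtracted, so that 0 is the WT level relative to the markers. Cd180, Tlr2, Ly86, Tlr13 and Cd14 have both APP points above the WT points, and Tlr4 and Myd88 have both below.

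The other genes of the pathway, from a list of 76 of which 68 were counted, were taken by role. Slc15a3, Ccl3 and Cd86 rose and 0 fell, with 14 higher and 2 lower at an unadjusted p under 0.05, and the median log2 fold change was 0.06 against 0.00 over all features. The background is the 0.843% of all features called as higher, and the 7.36% that were higher at an unadjusted p under 0.05. The share of all features lower at that p was not counted. Both APP libraries lay above both WT libraries for 27 of the 68, against 21.3% of all features. The study's list of mRNAs, chosen on these libraries, holds 6 of the 76 listed genes, so these counts are no independent evidence. Without WT.1, 4 pathway genes were called, and 1 of these, Ptgs2, was lower in APP.

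Of the 7 other Toll-like receptors listed, Tlr11 was not analysed here and the remaining 6 had few counts and did not pass. Tlr12, an endosomal receptor, gave 19 and 27 counts in APP beside 10 and 7 in WT (log2 ratio 1.82, SE 0.48, adjusted p = 0.149). Tlr1, a partner of TLR2, had 20 and 29 against 11 and 16 (log2 ratio 1.23, SE 0.47, adjusted p = 0.327). Tlr9, which detects unmethylated DNA, had 16 and 20 against 15 and 11 counts (log2 fold change 0.87, adjusted p = 0.502). These 3 had both APP libraries above both WT libraries in CPM, as did 21.3% of all features. In Tlr6, the other partner of TLR2, the counts were 19 and 35 against 50 and 21, in Tlr8 22 and 6 against 9 and 12, and in Tlr5 8 and 4 against 3 and 11, with overlapping groups in each.

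Among proteins that serve the receptors, Slc15a3, a lysosomal transporter of histidine and small peptides, gave 72 and 85 counts in APP beside 20 and 19 in WT. It rose 5.27-fold (adjusted p = 0.00655), from 0.455 and 0.536 CPM in WT to 2.48 and 2.74 in APP. Of the 8 genes of this group the other 7 did not pass. Hsp90b1, the chaperone that folds Toll-like receptors, had a log2 fold change of -0.08 at 380 CPM in APP (adjusted p = 0.707), and Lamp5, a lysosomal membrane protein, one of -0.26 (adjusted p = 0.279).

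None of the 4 adaptors other than Myd88 passed. The more abundant were Sarm1, at 12.1 ± 1.52 CPM in APP beside 12.5 ± 0.233 in WT (SD, n = 2), and Ticam2, at a log2 ratio of 0.04 (adjusted p = 0.975). The 17 kinases and ubiquitin ligases downstream had a median log2 fold change of 0.00 and 0 calls. Against 7.36% of all features, 1 of them was higher at an unadjusted p under 0.05. This was Irak4, a kinase that binds MYD88, with 34 and 49 counts in APP beside 23 and 24 in WT (ratio 2.31, adjusted p = 0.183), which edgeR's exact and likelihood ratio tests called, as did the fit without APP.3. Ube2n, a ubiquitin-conjugating enzyme, had a mean of 124 CPM in both groups. Chuk, a kinase that releases NF-κB, had a log2 fold change of -0.10 (adjusted p = 0.604). None of the 7 inhibitors passed, among them Cyld (a deubiquitinase, log2 ratio -0.08, adjusted p = 0.728) and Tollip (log2 ratio -0.09, adjusted p = 0.699).

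The 9 transcription factors gave 0 calls. At an unadjusted p under 0.05, 3 were higher, against 7.36% of all features. Both APP libraries lay above both WT libraries for 6, against 21.3% of all features. Nfkb1, a subunit of NF-κB, had a log2 ratio of 0.08 (adjusted p = 0.828), and Irf3, which acts downstream of TLR3 and TLR4, one of 0.34 (adjusted p = 0.415). Irf8, a factor of microglia, gave 155 and 208 counts in APP beside 139 and 129 in WT (log2 ratio 0.83, adjusted p = 0.0775). The 7 endogenous ligands had 0 calls, and the abundant Hspd1 and Hmgb1 had log2 fold changes of 0.07 and 0.12. All 7 log2 fold changes were above 0, with a median of 0.29. Both APP libraries lay above both WT libraries for 3, against 21.3% of all features. At an unadjusted p under 0.05, 1 ligand was higher, against 7.36% of all features.

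Of 17 genes known to be induced through the pathway, 10 were counted, and Tnf, Il6, Il12b, Ccl2, Ccl5, Nos2 and Ifnb1 were not analysed here. Ccl3, a chemokine, gave 35 and 34 counts in APP beside 2 and 1 in WT, a ratio of 30.4 (exact 95% counting interval from 9.99 to 151, adjusted p = 0.00756). Cd86, a co-stimulatory protein of antigen-presenting cells, gave 117 and 157 counts in APP beside 60 and 75 in WT and rose 2.64-fold (adjusted p = 0.0362). Cd86 was no longer called without WT.1, at a log2 fold change of 1.10 and an adjusted p of 0.0953. The most abundant targets that did not pass were Ptgs2, which is also induced by neuronal activity, at -0.56 (adjusted p = 0.0536), and Cd40 at -0.11 (adjusted p = 0.834). Over the 10 targets counted the median log2 fold change was 1.04, with 7 above 0. Ccl3, Cxcl10 and Ccl4 reached the minimum of 10 counts only through their APP libraries. This favours targets that are high in APP, so the median is not evidence of a direction. Of those at low counts, Cxcl10, a chemokine induced by interferon, gave 18 and 20 counts in APP beside 4 and 0 in WT. Its pooled ratio was 12.6 (exact 95% counting interval from 4.53 to 48.5), and that of the fit 11.95 (adjusted p = 0.0978). Ccl4, a chemokine related to Ccl3, gave 14 and 8 beside 1 and 0. Its pooled ratio was 29.1 (exact 95% counting interval from 4.71 to 1202), and that of the fit 23.1 (adjusted p = 0.113). Il1a, a cytokine, gave 23 and 43 beside 26 and 15 (log2 ratio 1.09, adjusted p = 0.326). edgeR's exact test called Cxcl10 and Ccl4 but not Il1a.

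**Figure D5:**
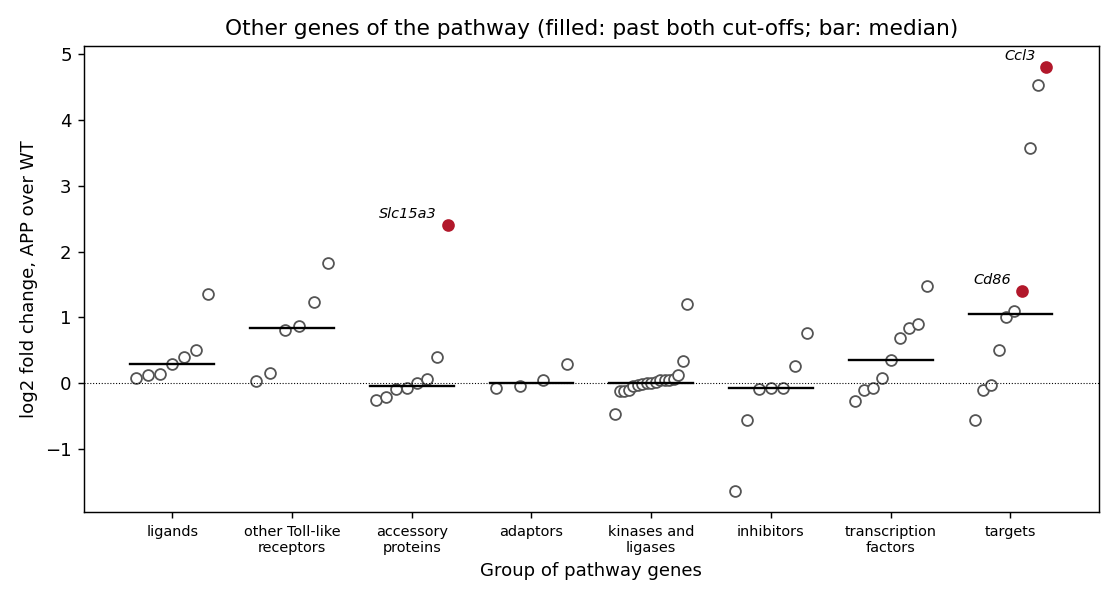
Log2 fold change of APP over WT for each of the 68 other pathway genes, by role, with bars for the group medians and filled points for genes past both cut-offs. The filled points are Slc15a3, Ccl3 and Cd86, and the adaptors and the kinases and ligases cluster near 0.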

How the data were processed

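RNA from the cortex of 2 APP and 2 WT mice of 12 months was depleted of ribosomal RNA and sequenced as strand-specific paired reads of 100 bases. Per the study's methods, read pairs matching ribosomal RNA were removed and the others placed on Ensembl mouse transcripts by FANSe2 with 7 mismatches allowed, and transcripts needed 10 mapped reads or more. The authors deposited raw read counts per transcript. The submitters' processing notes name CASAVA 1.8, edgeR and a human genome build. The Ensembl release and the strand setting of the counting are not given in the sources used here. The deposited fold changes, p-values and FDRs are the authors' own comparison. Neither these nor 4 other per-library columns were used. The APP columns were matched to their group only.

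Counts of 36858 of 37539 transcripts (98.2%) were added up by gene through their identifiers in GENCODE M21 (GRCm38). Analyses used R 4.3.3 with edgeR 4.0.16 and DESeq2 1.42.0, and Python 3.11.15 (pandas 2.3.3). APP was compared with WT by the quasi-likelihood method of edgeR on TMM-scaled libraries, without covariates. Intervals of fold changes use its standard errors and degrees of freedom, and counting intervals are exact binomial. The latter cover counting error only, and the reads carry no molecular identifiers.

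The genes, lists and markers were chosen with earlier results of these data known. Named pathway genes are all Toll-like receptors counted, all genes past both cut-offs, and the 2 of most counts among the others of each role, and a few more were chosen after their values were seen (Ly96, Irf8, Irak4, Cxcl10, Ccl4 and Il1a). Beyond the pathway, the rule takes the 6 genes closest to the 10 in profile, and 1 of these is not reported here. Alternatives were other tests, library totals, a higher count filter, transcripts, a fold change of 2, each library left out in turn and, added after the data were seen, deposited symbols.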

Additional observations from a re-analysis of the deposited data

How the results depend on the processing

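The number of the 10 genes past both cut-offs, 4 with the quasi-likelihood test, was 8 with edgeR's exact test, 8 with its likelihood ratio test and 8 over transcripts in place of gene sums, and that of the other pathway genes, 3, was 8, 8 and 5. It was 5 and 3 with DESeq2 and with library totals, 3 and 2 with at least 10 counts in every library, 4 and 3 at a fold change of 2, and 5 and 3 with deposited symbols, a setting chosen after seeing the data that leaves no value for Unc93b1. The causes were not tested, except that the count filter removes Cd180 and Ccl3. With each library left out, the numbers ran from 4 to 9 and from 3 to 9, with Ptgs2 as a call of the lower direction without WT.1. The median log2 fold change of the 10 genes, 1.10, was 0.93 with the count filter and 1.28 with deposited symbols, where Cd180 and Unc93b1 in turn have no value, and lay between 0.98 and 1.24 with single libraries left out. Relative to the microglial markers the median difference of 0.29 was 0.10 with the median of the markers in place of their sum, and lay between 0.27 and 0.42 with single libraries left out. In refits of single genes, with the most abundant transcript standing for a gene in the transcript fit, 115 kept their side of the cut-offs, 24 gained a call and 1, Cd86 without WT.1, lost it (Unc93b1 is among the 8 over transcripts by another transcript), and no called gene changed direction. No paired analysis was possible because the APP columns carry numbers that the labels do not give, so the replicate block was not run. At the low counts of Tlr2, Cd14, Cd180 and Myd88, counting error widens every interval, and 2 mice per group limit all of them.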

Other observations

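The ratio of the partner genes Ly86 and Cd180 within a library was 5.91 and 7.42 in the APP libraries and 12.9 and 20.25 in the WT libraries, lower in both APP libraries than in either WT library (exact permutation p = 0.3333, the smallest that 2 against 2 can give). That of Cd14 to Tlr4 was 0.357 and 0.292 in APP and 0.184 and 0.199 in WT, and that of Tlr2 to Myd88 was 1.76 and 1.78 in APP and 0.5 and 0.528 in WT, each at the same p. Unc93b1 and Tlr7 had a ratio of 1.07 and 1.33 in APP against 1.51 and 0.900 in WT, with overlapping groups. These ratios are of CPM, not of levels per length.

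Among 14657 other genes with a mean of at least 1 CPM, those with a profile over the 4 libraries closest to the median of the 10 genes, as the Euclidean distance of log2 values centred on WT, included Renbp, Gpr101, Fcgr3, Plce1 and Havcr2. Fcgr3, an Fc receptor, had 17.4 and 18.8 CPM in APP and 9.19 and 9.59 in WT, and Havcr2, an inhibitory immune receptor, had 7.204 and 7.62 against 4.03 and 3.75. Gpr101, a receptor known from the hypothalamus, had 8.34 and 9.56 CPM in APP and 4.30 and 4.34 in WT. This likeness is a description over 4 libraries.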
